A study of Mus musculus with 9 samples.

Results

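The Pate, Ly6 and Lypd genes encode small cysteine-rich proteins of the Ly6/uPAR family. The family shares a compact fold of finger-like loops held together by disulphide bonds. Most Ly6 and Lypd proteins are tethered to the outer face of the plasma membrane by a glycosylphosphatidylinositol (GPI) anchor, whereas the Pate proteins, named for expression in prostate and testis, are mostly secreted. In the epididymis, spermatozoa pass from the caput through the corpus to the cauda and take up proteins from the lumen on the way, and secreted and GPI-anchored proteins of the epithelium are among the proteins that reach the sperm surface. The genes described here are every gene of the deposited table whose symbol begins with Pate, Ly6 or Lypd followed by a letter or digit. This gave 44 of 32195 genes, namely 12 Pate, 21 Ly6 and 11 Lypd genes.

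Single cells were isolated from the caput, corpus and cauda of C57BL/6 mice (C57BL/6J in the study's methods) aged 42 days (P42) or 56 days (P56), for which no treatment was given. Each library came from pooled mice, with 1 pool at P42 and 2 pools at P56 (replicates 1 and 2), and every pool gave 1 library for each segment, 9 in all. After filtering, 41411 cells remained, 4080 to 4897 in a library, with 18848383 to 40664323 unique molecular identifiers (UMIs, which count captured RNA molecules) and a median of 3066 to 7638 UMIs in a cell. Mitochondrial genes took 6.52% to 6.88% of the UMIs of the caput libraries, 14.8% to 23.1% for the corpus and 10.4% to 17.5% for the cauda. With mitochondrial genes left out of the sums, the segment test described below called the same number of the families' genes, 23 over all cells and 22 in principal-like cells. Cell types were rebuilt from clusters and fixed marker lists that held no Pate, Ly6 or Lypd gene, and are called "-like" for that reason: 19080 cells were principal-like, 5541 clear/narrow-like, 3909 basal-like, 3913 fibroblast-like, 612 myoid-like, 2825 macrophage/monocyte-like, 812 endothelial-like, 783 sperm-like, 435 halo/T-like and 194 ciliated-like, while 3307 cells of unnamed clusters entered only the sums over all cells. With the segments pooled, marker lists were highest in their own class for 9 of 10 basal, 9 of 9 clear/narrow, 12 of 12 sperm and 12 of 12 endothelial markers, but for only 14 of 26 principal markers, with no marker at 0 in its own class. The classes were spread unevenly over the segments, so these counts do not measure how much principal-cell RNA other classes held. Taken within segments, markers of the principal cell, which lines the duct and secretes into the lumen, were counted in cells of every class. In macrophage/monocyte-like cells their level was, at the median, 0.726 times that of principal-like cells for the caput, 0.503 times for the corpus and 0.567 times for the cauda.

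The 44 genes lay at 9 places in the genome when genes less than 200 kb apart were grouped, all on build GRCm38. On chromosome 9, 8 Pate genes lay between 35570284 and 35910796 and 4 more between 36431884 and 36643376. On chromosome 15, 16 genes lay between 74732247 and 75567255, from Lypd2 to Ly6h. The others were 6 Ly6 genes on chromosome 17 between 35065388 and 35115428, in the region of the major histocompatibility complex, and Lypd genes on chromosomes 1, 2, 7 and 11. The sequences upstream of the gene start are shown for 4 genes that differ in where along the duct they were high: Pate5 (caput), Pate6 (caput and cauda), Pate1 (corpus) and Ly6f (corpus and cauda). Each is the 250 bases before the start in RefSeq (GRCm38.p6), written 5′ to 3′ on the gene's own strand, with matches to AGAACA, the core of androgen response elements, or to TATAAA, the core of the TATA box, in capitals on either strand (AGAACA read on the other strand is TGTTCT).
Pate5, chr9:35844151-35844400, minus strand: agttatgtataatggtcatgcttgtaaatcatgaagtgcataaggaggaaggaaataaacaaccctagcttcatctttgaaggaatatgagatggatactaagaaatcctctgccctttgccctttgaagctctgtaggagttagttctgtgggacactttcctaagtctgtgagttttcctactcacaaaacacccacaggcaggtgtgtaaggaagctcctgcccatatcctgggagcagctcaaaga
Pate6, chr9:35790113-35790362, minus strand: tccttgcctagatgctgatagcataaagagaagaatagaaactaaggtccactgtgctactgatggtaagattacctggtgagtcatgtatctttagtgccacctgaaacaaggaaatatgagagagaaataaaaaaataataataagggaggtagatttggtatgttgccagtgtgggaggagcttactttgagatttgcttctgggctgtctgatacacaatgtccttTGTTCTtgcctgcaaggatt
Pate1, chr9:35687372-35687621, minus strand: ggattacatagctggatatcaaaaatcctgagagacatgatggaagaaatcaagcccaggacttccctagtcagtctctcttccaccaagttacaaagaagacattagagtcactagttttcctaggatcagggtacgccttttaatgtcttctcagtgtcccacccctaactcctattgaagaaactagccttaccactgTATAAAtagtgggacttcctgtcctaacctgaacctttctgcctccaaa
Ly6f, chr15:75268171-75268420, plus strand: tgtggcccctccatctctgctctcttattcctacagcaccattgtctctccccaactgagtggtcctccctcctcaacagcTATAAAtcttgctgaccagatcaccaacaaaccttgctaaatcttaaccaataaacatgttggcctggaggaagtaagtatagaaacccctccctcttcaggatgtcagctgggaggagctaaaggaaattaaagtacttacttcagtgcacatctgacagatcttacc

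The match to AGAACA began at position -20 in Pate6, and the match to TATAAA at position -49 in Pate1 and at -169 in Ly6f, counted back from the start. For the 29 genes of the families with a RefSeq promoter, only the first listed start of each gene was counted. AGAACA was found in 8 (27.6%) and TATAAA in 8 (27.6%), against 16.1% and 12.4% of all 32851 promoters of the same length. Of the other motifs searched on both strands, CCAAT, the core of the CCAAT box, was found in 15 of the 29 and in 33.8% of all promoters, and TGANTCA, the AP-1 motif, in 3 and in 6.75%. Later listed starts, not counted here, held AGAACA in Lypd11 and CCAAT in Ly6g5b and Ly6g6d. None of the motifs was found in the Pate5 window, which says only that these letters are not within it.

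The genes took 2473800 UMIs, 0.946% of all UMIs, and 99.8% of cells held at least 1. Their share of the UMIs of a library was 1.13% to 1.5% for the caput, 0.481% to 0.613% for the corpus and 0.449% to 0.981% for the cauda. The 5 genes with the most UMIs were Ly6e (554239), Pate5 (435243), Pate6 (264129), Ly6f (262137) and Ly6g5c (233844), which together held 70.7% of the families' UMIs. In all, 21 genes had at least 1000 UMIs and are described with their values in every library, 11 had 100 to 999 and 12 had fewer than 100. The second set held Ly6g6e (738 UMIs), Lypd4 (393), Ly6k (392), Lypd6 (332), Lypd9 (239), Ly6g6c (229), Lypd6b (222), Ly6h (130), Ly6g2 (106), Ly6m (106) and Lypd10 (100). The third set, with 6 to 61 UMIs, held Ly6i, Ly6a2 (a transcribed pseudogene by its annotation), Lypd5, Lypd11, Ly6g6g, Pate14, Pate12, Lypd2, Ly6g6f, Pate8, Ly6g and Lypd1. Ly6g, the surface marker of neutrophils, had 6 UMIs, as did Lypd1, a regulator of nicotinic receptors.

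Segments were compared first over all cells, each pool of mice being a block, by the quasi-likelihood test of edgeR, and p-values were adjusted over all genes tested by the Benjamini-Hochberg method. A gene was called where the adjusted p over the segments was below 0.05 and the highest and lowest segment differed by at least 1 on the log2 scale. Of the 44 genes, 32 passed the filter on low counts, 12 were not tested, and 23 were called (71.9% of those tested), beside 24.7% of the 18479 genes tested. By their highest segment these were 11 caput, 6 corpus and 6 cauda genes, beside 11.3%, 7.19% and 6.19% of all genes. The median of the largest log2 difference between segments was 4.50 in these 32 genes and 0.801 in all genes tested. A gene could pass the filter through its high segment alone, so these counts describe the genes that passed and not the families. Without the P56 replicate 1 pool, 13 of 33 were called, beside 614 of 19097 genes. Without P56 replicate 2 these were 17 of 31 beside 1225 of 18712, and without P42 29 of 32 beside 7446 of 18618. Sums over all cells cannot tell fewer cells of a type from less RNA in each cell, so the members are described below in principal-like cells, where 26 genes were tested, 18 were not, and 22 were called (84.6% of those tested), beside 33.6% of 15545 genes. By their highest segment 9 were caput, 7 corpus and 6 cauda genes, beside 14.4%, 9.7% and 9.44%. All levels are counts per 1000000 UMIs (CPM) of the cells summed, with libraries in the order P42, P56 replicate 1 and P56 replicate 2, and log2 differences come from the fit with their standard error (SE).

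**Figure D1:**
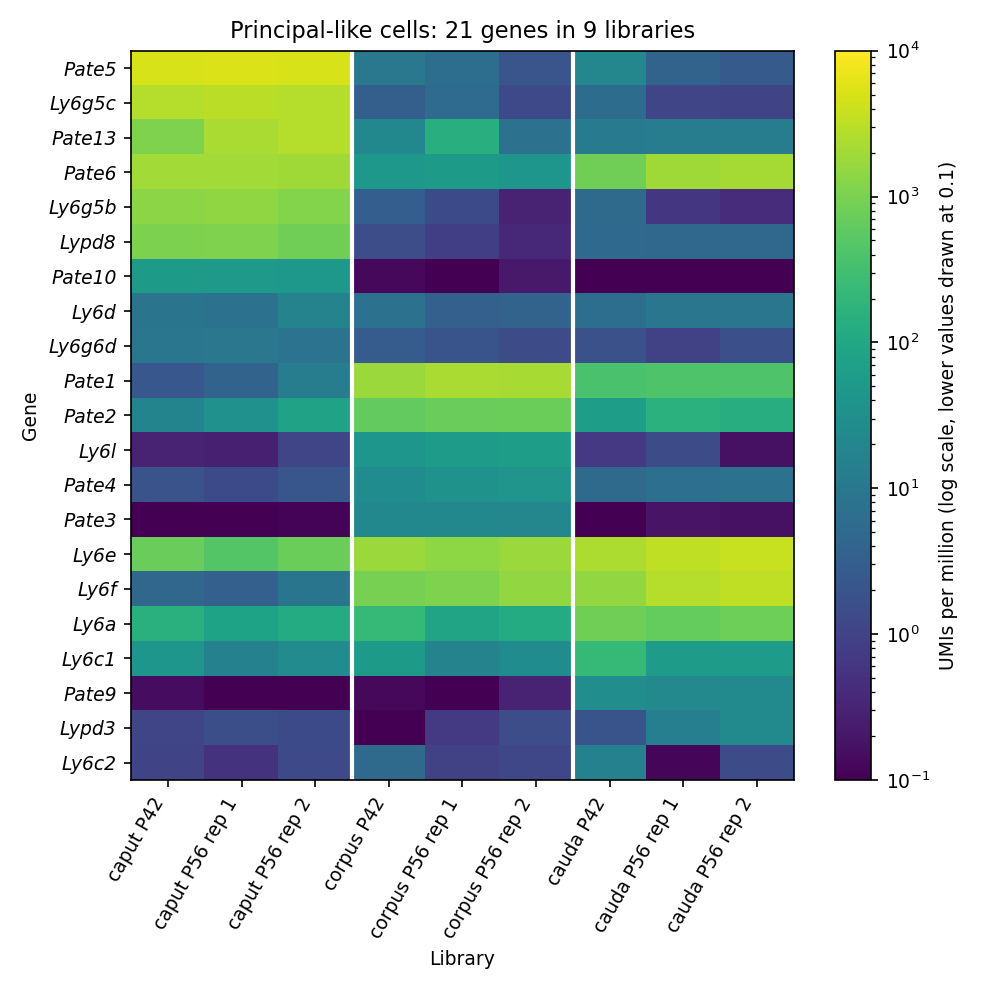
Level of the 21 genes with at least 1000 UMIs in the principal-like cells of each library, as CPM on a log color scale from 0.1 to 10000 (lower values drawn at 0.1); white lines part the caput, corpus and cauda libraries. Genes from Pate5 to Pate10 stand high in the 3 caput libraries, those from Pate1 to Pate3 in the corpus and those from Ly6e to Pate9 in the cauda, with Pate6 high in caput and cauda.

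Pate6 aside, the caput genes were Pate5, Pate10, Pate13, Ly6g5b, Ly6g5c, Lypd8, Ly6g6d and Ly6g6e. Pate5, the Pate gene with the most UMIs, stood at 5066, 5554 and 5016 CPM in the caput, at 9.89, 6.31 and 2.06 in the corpus and at 21, 3.89 and 2.64 in the cauda. The log2 difference of corpus minus caput was -9.97 (SE 0.67, adjusted p = 2.4e-05), and corpus and cauda overlapped (cauda minus corpus 0.40, SE 0.50, adjusted p = 0.65). Ly6g5c and Ly6g5b, neighbouring genes on chromosome 17, had the same shape. Ly6g5c stood at 2816, 3073 and 2824 CPM in the caput and at 1.05 to 5.76 in the other 6 libraries. Ly6g5b stood at 1336, 1495 and 1171 in the caput and at 0.294 to 5.32 elsewhere. Each of these genes was over 9 log2 units lower in the corpus than in the caput, with no overlap between the caput and the rest. The smaller signal of Pate10 was parted as sharply, with 52.6, 48.3 and 47.2 CPM in the caput and 0 to 0.221 in the other libraries.

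Lypd8, known in the colon as a protein that holds flagellated bacteria away from the epithelium, stood at 1021, 1101 and 833 CPM in the caput. In the corpus it stood at 1.54, 0.833 and 0.368, and in the cauda at 5.09, 4.62 and 4.63. The cauda lay above the corpus in every library, with a log2 difference of 2.69 (SE 0.35, adjusted p = 0.0021), so Lypd8 was lowest in the middle of the duct. Pate13 stood at 1066, 2359 and 2829 CPM in the caput and at 11.3, 13.1 and 12.3 in the cauda. In the corpus it stood at 22, 137 and 7.51, so the P56 replicate 1 library stood far above the other 2 corpus libraries. Ly6g6d and Ly6g6e overlap on opposite strands of chromosome 17 by 229 of 1172 and 1273 exon bases, and reads in these bases are uncertain if strand was not used in counting, which is not given in the sources used here. Ly6g6d stood at 9.23, 9.43 and 7.99 CPM in the caput, at 2.83, 2.02 and 1.47 in the corpus and at 1.77, 0.972 and 1.65 in the cauda. Its log2 difference of cauda minus caput was -2.37 (SE 0.28, adjusted p = 0.00044). Ly6g6e, with 738 UMIs, was 2.44 log2 units lower in the corpus than in the caput (SE 0.43, adjusted p = 0.003), and its call was lost without either P56 pool (adjusted p = 0.062 and 0.069).

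Pate6 was high at either end of the duct and low between them. It stood at 2022, 2061 and 1940 CPM in the caput, at 47.1, 53.5 and 42.2 in the corpus and at 843, 1900 and 2116 in the cauda. Corpus minus caput was -5.33 (SE 0.43, adjusted p = 5.7e-05) and cauda minus corpus 5.19 (SE 0.43, adjusted p = 0.00044) on the log2 scale. Caput and cauda overlapped, with a difference of -0.14 (SE 0.36, adjusted p = 0.8). This was the only called gene with at least 1000 UMIs whose corpus level lay more than 5 log2 units below both other segments. Over all cells, its call was lost without the P56 replicate 1 pool (adjusted p = 0.086).

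The corpus genes were Pate1, Pate2, Pate3, Pate4 and Ly6l, joined by Ly6g2 and Lypd6b at low counts. Pate1 stood at 1770, 2367 and 2246 CPM in the corpus, at 2.23, 3.96 and 12.6 in the caput and at 370, 425 and 411 in the cauda. The segments did not overlap, and the order from corpus through cauda to caput held in every pool. Corpus minus caput was 8.73 (SE 0.52, adjusted p = 1.4e-05) and cauda minus corpus -2.27 (SE 0.38, adjusted p = 0.0062). Pate2 had the same order with a smaller range: 633, 728 and 737 in the corpus, then 59.8, 156 and 132 in the cauda, then 18.2, 33.7 and 74.8 in the caput, with caput and cauda overlapping. Pate4, which encodes a secreted protein also known from seminal vesicle fluid, stood at 27.5, 37.0 and 39.7 in the corpus, at 5.32, 6.81 and 7.33 in the cauda and at 1.94, 1.33 and 2.19 in the caput. These 3 genes were each higher in cauda than in caput by the test, by 6.46, 1.80 and 2.10 log2 units for Pate1, Pate2 and Pate4.

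Pate3 and Ly6l were found almost wholly in the corpus. Pate3 stood at 21.6, 21.3 and 20.8 CPM there and at 0 to 0.182 in the other 6 libraries. Ly6l, which lies on chromosome 15, stood at 43.0, 55.3 and 61.4 in the corpus and at 0.165 to 1.46 elsewhere. Both were called, with corpus minus caput at 8.46 (SE 0.43) and 6.70 (SE 0.61). Ly6g2 had 47 UMIs in the principal-like cells of the corpus and 0 in those of the cauda, which makes the corpus at least 16.1-fold higher when 3 counts over the segment are taken as the limit of a count of 0. Lypd6b stood at 1.54, 1.01 and 0.736 in the corpus and at 0.165 to 0.493 elsewhere, and it passed only narrowly (adjusted p = 0.0498). Its call was lost with DESeq2, without TMM factors, with gated cells and without the P42 or the P56 replicate 2 pool. In GENCODE M21, Pate2 spans Pate1, Pate3 and Pate4 on the opposite strand, and its exons share 104, 40 and 217 bases with theirs. How reads in those bases were counted depends on the strand and overlap settings, which are not given in the sources used here. The similar shape of these genes is uncertain to that extent.

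Levels toward the cauda were higher for Ly6f, Ly6e, Ly6a, Ly6c1, Pate9 and Lypd3. Of these, Ly6e, Ly6a and Ly6c1 had their highest mean in another type of the cauda. These means were 3907 and 1695 CPM in basal-like cells for Ly6e and Ly6a, and 969 in endothelial-like cells for Ly6c1. How much RNA of other types was counted in principal-like cells was not tested. Ly6f stood at 4.54, 3.45 and 8.76 CPM in the caput, at 938, 1077 and 1519 in the corpus and at 1563, 2783 and 3296 in the cauda. The log2 difference of corpus minus caput was 7.87 (SE 0.40, adjusted p = 8.9e-06), and that of cauda minus corpus 1.23 (SE 0.30, adjusted p = 0.028). Each pool was higher in the cauda than in the corpus. Pate9 was confined more tightly: 27.9, 22.9 and 23.7 in the cauda against 0 to 0.294 in the other 6 libraries, with cauda minus corpus at 7.34 (SE 0.46, adjusted p = 0.00019). Its neighbours Pate8 and Pate14 had only 7 and 33 UMIs in all, every one of them in the cauda, while Pate12, the remaining gene of that place, had 28.

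Ly6e, a receptor of a syncytin of the placenta and a restriction factor for some viruses, was present at every level of the duct. It stood at 723, 454 and 754 CPM in the caput, at 1743, 1428 and 1773 in the corpus and at 2411, 3302 and 3735 in the cauda. No segments overlapped in these cells (cauda minus caput 2.54, SE 0.32, adjusted p = 0.00061; cauda minus corpus 1.09, SE 0.31, adjusted p = 0.05), but over all cells Ly6e was not called (adjusted p = 0.087). Ly6a, the stem cell antigen Sca-1, stood at 149, 78.3 and 120 in the caput, at 228, 83.5 and 118 in the corpus and at 808, 646 and 796 in the cauda. Caput and corpus overlapped (0.34, SE 0.27, adjusted p = 0.36), and the cauda lay 2.65 log2 units above the corpus (SE 0.29, adjusted p = 0.001). Lypd3, a protein of squamous epithelia, stood at 1.99, 14.2 and 25.2 in the cauda, at 0, 0.714 and 1.55 in the corpus and at 1.12, 1.56 and 1.31 in the caput. Its cauda libraries differed more among themselves than any other gene called in the cauda, with the P42 library close to the caput, and the call was lost without the P56 replicate 1 pool (adjusted p = 0.069).

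Ly6c1 and Ly6c2 are near copies: 391 of the 31-base words in the last 500 bases of their transcripts are shared, 51.8% of the smaller set, so reads can be split between them and their counts are uncertain. Ly6c1 stood at 42.1, 16.0 and 26.1 CPM in the caput, at 52.4, 17 and 27.5 in the corpus and at 228, 57.2 and 58.7 in the cauda. The cauda was 1.79 log2 units above the corpus with the pool as a block (SE 0.20, adjusted p = 0.0011), although the P42 corpus library came close to the P56 cauda libraries. Ly6c2, at 0.122 to 15.9, was not called (adjusted p = 0.37). Ly6d, a marker of basal and squamous epithelia, was not called in these cells either (adjusted p = 0.11), with 3.45 to 17.6 across the 9 libraries.

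In all cells, 3 more genes were called that were not tested in principal-like cells. Lypd4 and Lypd9 were highest in the caput, and Lypd6 in the cauda. Lypd4 had 393 UMIs and stood at 1.27, 1.97 and 5.92 CPM in the caput, at 1.81, 0.632 and 1.34 in the corpus and at 0, 0 and 0.0246 in the cauda, so caput and corpus overlapped. Lypd9 had 239 UMIs and stood at 0.413, 1.43 and 3.95 in the caput, at 0.415, 0.435 and 0.879 in the corpus and at 0.0531, 0 and 0.0246 in the cauda. The caput libraries held 15, 48 and 284 sperm-like cells, the corpus libraries 142, 110 and 115 and the cauda libraries 54, 6 and 9, and the part of these numbers in the difference was not tested. Both calls were lost without the P56 replicate 1 pool (adjusted p = 0.065 for Lypd4 and 0.12 for Lypd9) and without the P56 replicate 2 pool (0.074 and 0.13). Lypd6 stood at 1.34, 0.381 and 0.601 in the caput and at 4.56, 0.979 and 1.13 in the cauda, which overlapped. Its call was lost without either P56 pool (adjusted p = 0.25 and 0.15) and without the block (0.24). Without the block those of Ly6c1 (adjusted p = 0.16) and Lypd3 (0.088) were lost as well. Then 20 of 32 were called, beside 3337 of 18479 genes. Ly6c1 over all cells was also lost without the P56 replicate 1 pool (adjusted p = 0.16), and Lypd3 without either P56 pool (0.36 and 0.17).

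On chromosome 9, the Pate genes of the larger group split by position. Ordered by the lower end of the gene in GENCODE M21, Pate2, Pate4, Pate3 and Pate1 were highest in the corpus, and then Pate10, Pate6, Pate5 and Pate13 were highest in the caput, although caput and cauda overlapped for Pate6. The place of Pate2 depends on the annotation. Its RefSeq upstream window (35669389 to 35669638) lies between Pate3, which ends at 35648202, and Pate1, which begins at 35685079. Of the smaller group only Pate9 could be tested, and it was highest in the cauda. On chromosome 15, 9 of the 16 genes were tested in principal-like cells and 6 were called, beside 33.6% of all genes called. By their highest segment they were Ly6e, Ly6a, Ly6c1 and Ly6f in the cauda, Ly6g2 and Ly6l in the corpus, with none in the caput, beside 9.44%, 9.7% and 14.4% of all genes for cauda, corpus and caput. Those not called there were Ly6d, Ly6k and Ly6c2.

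**Figure D2:**
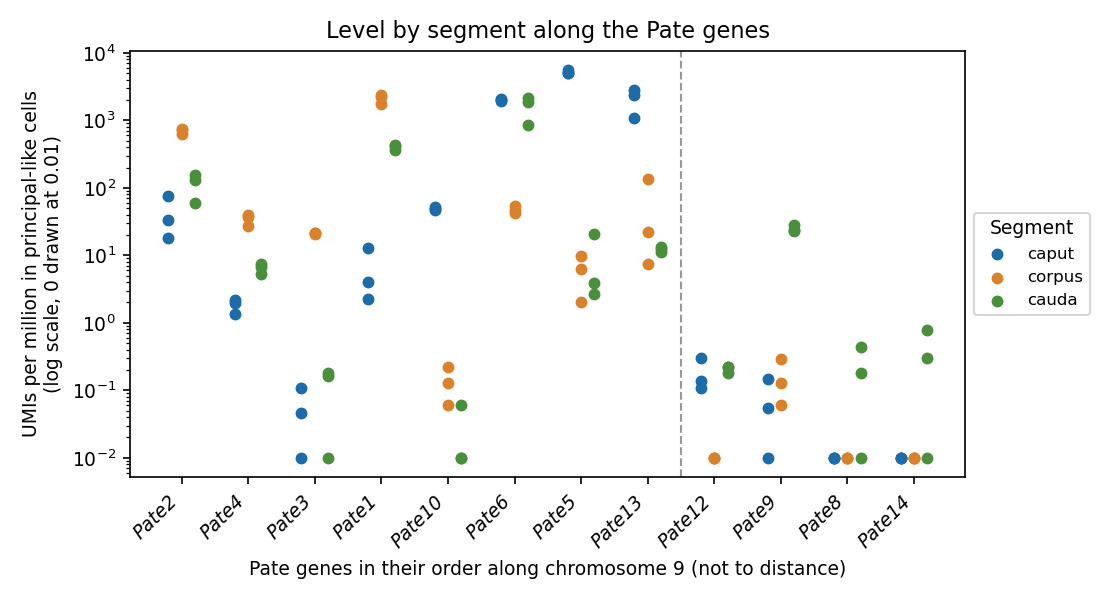
Level of the 12 Pate genes in principal-like cells (CPM, log axis, 0 drawn at 0.01), 1 point for each library in caput, corpus or cauda, with genes in their order along chromosome 9 in GENCODE M21 and a dashed line between the groups. Corpus points are highest for Pate2 to Pate1, caput points for Pate10 to Pate13 (with cauda points of Pate6 beside them) and cauda points for Pate9.

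Within the caput the genes were not high in the same principal-like clusters. The families were left out of the genes used for clustering, and levels by cluster are descriptions with no test. Pate5 had 7624, 8815, 7997 and 6914 CPM in clusters 7, 17, 22 and 18, all of which were nearly wholly of caput cells, but 2050 in cluster 11 and 1031 in cluster 8. Ly6g5b and Pate10 were likewise highest in clusters 7, 17 and 22, and Ly6g5c in clusters 18 and 17. Clusters 17 and 22 were split by age: all 709 cells of cluster 22 were from P42, but only 1 of the 895 of cluster 17. Pate13 went the other way, with 5970 in cluster 8 and 3246 in cluster 11 against 177 to 447 in clusters 7, 17, 22 and 18. Pate6 and Lypd8 were high in cluster 11, with 6779 and 4643, against 2461 and 193 in cluster 8. The caput thus held cells with Pate5 and the Ly6g5 genes, cells with Pate6 and Lypd8, and cells with Pate13, although all 3 kinds of cluster held some of each gene.

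In the corpus, Pate13 was kept in cluster 27, with 924 CPM against 6.9 to 24.4 in clusters 19, 1 and 12. Cluster 27 held 478 cells, of which 477 were from the corpus. Of the Pate13 UMIs in the principal-like cells of the corpus, the P42, P56 replicate 1 and P56 replicate 2 libraries held 171, 2310 and 102, so most came from 1 library. Pate2 was highest in cluster 19 (830) and next in cluster 1 (723), whereas Pate1 had 1044 in cluster 19 and 2562 in cluster 1. Ly6f had 190 in cluster 27, 391 in cluster 19 and 1458 in cluster 1, against 3059 in cluster 0, a cauda cluster. Lypd3 stood out in the cauda, with 64.1 in cluster 20 against 8.5 in cluster 0 and 1.6 in cluster 9. Cluster 20 held 725 cells, 4 of them from P42. Beside Lypd3, its leading genes were the cornified envelope genes Sprr2f and Sprr1a, and Nipal1, Sgms2, Ptgs2, Srxn1, Csf3, Hilpda and Ipmk. Pate9 was near level over the cauda clusters 0, 9 and 20, with 23.4, 27.8 and 22.3.

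**Figure D3:**
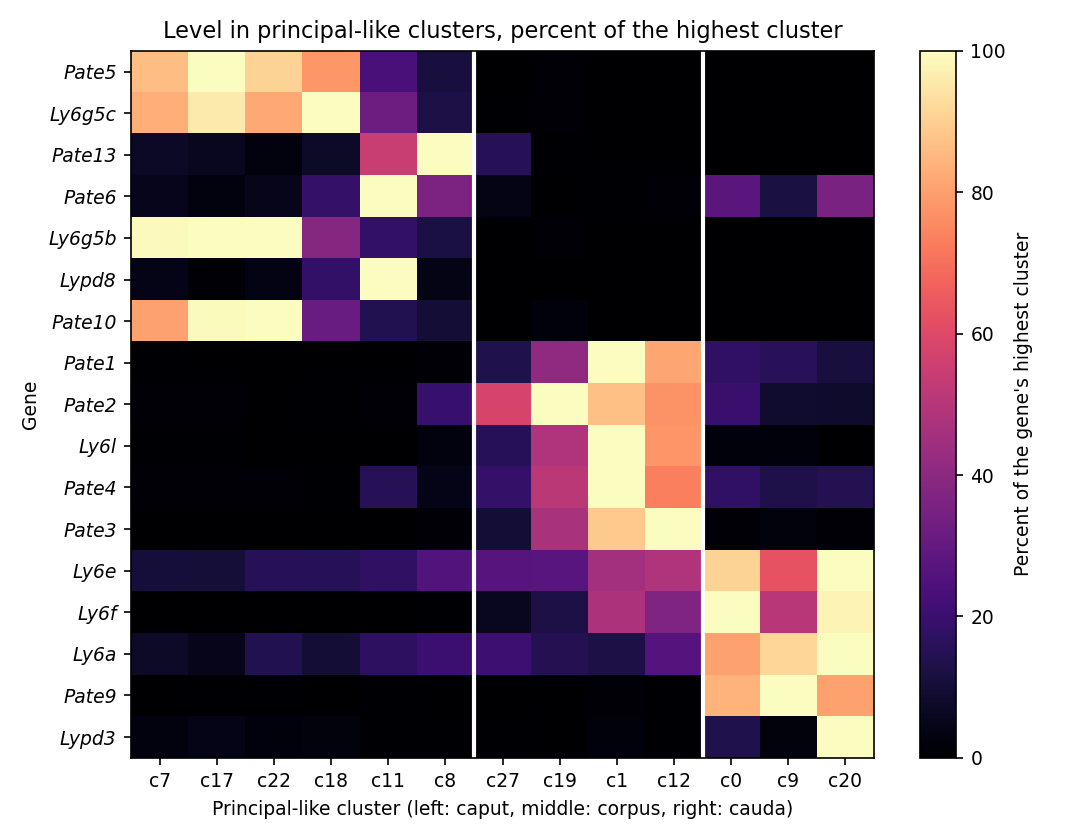
Level of 17 genes in 13 principal-like clusters, each as percent of that gene's highest cluster (color scale from 0 to 100); white lines part clusters mostly of caput, corpus and cauda cells. Pate5, Ly6g5b, Ly6g5c and Pate10 are bright in clusters 7, 17 and 22 (Ly6g5c also in 18), Pate6 and Lypd8 in cluster 11, Pate13 in cluster 8, and Lypd3 in cluster 20.

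The other cell types were compared across segments in the same way. In basal-like cells 21 genes were tested and 16 called, beside 15.7% of all genes, and these were 6 caput, 5 corpus and 5 cauda genes, beside 6.33%, 4.05% and 5.28%. In clear/narrow-like cells 20 were tested and 19 called, beside 17%, with 8, 4 and 7 for the segments in that order, beside 7.63%, 4.05% and 5.36%. Myoid-like and fibroblast-like cells were summed, and 20 were tested and 16 called, beside 10.2%, with 8, 6 and 2, beside 5.36%, 2.42% and 2.43%. Without the P56 replicate 1 pool, 10 of 21 were called in these cells, beside 269 of 12150 genes. In macrophage/monocyte-like cells 18 were tested and 14 called, beside 12%, with 7, 3 and 4, beside 6.09%, 2.68% and 3.26%. In endothelial-like cells 12 were tested and 9 called, beside 8.37%, with 5, 2 and 2, beside 3.74%, 1.81% and 2.81%. Across the 6 types, 12 genes were tested in all and 9 called in all (75%), beside 5.21% of the 5621 genes tested in all 6. For 8 of these 9 (Pate1, Pate2, Pate5, Pate13, Ly6f, Ly6g5b, Ly6g5c and Lypd8) the highest segment was the same in every type, and for Pate6 it was caput or cauda. How many of the 293 genes called in all 6 types kept 1 highest segment was not counted, so this only describes the 9. The median level of the principal markers relative to principal-like cells, in caput, corpus and cauda, was 0.532, 0.425 and 0.518 in basal-like, 0.550, 0.377 and 0.422 in clear/narrow-like, 0.680, 0.477 and 0.560 in myoid-like and fibroblast-like, and 0.555, 0.354 and 0.469 in endothelial-like cells. The part of this in the calls was not tested.

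Levels outside the principal-like cells varied from gene to gene. In the caput, Pate5 in macrophage/monocyte-like, fibroblast-like, clear/narrow-like and basal-like cells was 1.0, 0.79, 0.75 and 0.54 times that of principal-like cells. The median ratios of the principal markers were 0.726, 0.677, 0.550 and 0.532. Single markers ranged from 0.231 to 1.19, 0.338 to 0.858, 0.181 to 0.884 and 0.145 to 0.650, so Pate5 lay within the marker range in each type. Ly6g5b and Pate10 were at 1.06 and 1.12 times in the macrophage/monocyte-like cells, within that range as well. Pate6, Pate13 and Lypd8 were lower there, at 0.29, 0.26 and 0.31 times, also within it. In basal-like and clear/narrow-like cells they were at 0.16 to 0.20 times. In the corpus, Pate1 stood in macrophage/monocyte-like cells at 0.52 times its level in principal-like cells, beside 0.503 for the markers. In the cauda, Ly6f stood at 0.55 times, beside 0.567. The share of cells with a UMI did not part the types: in the caput 97.0% of 7405 principal-like cells (exact 95% interval 96.5% to 97.3%) and 98.6% of 571 macrophage/monocyte-like cells (97.3% to 99.4%) held Pate5, at medians of 6396 and 5446 UMIs in a cell. After each cell was thinned to 1000 UMIs, 80.6% and 84.4% did so. No difference between these types is read from the shares, and intervals cover counting error only.

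Another set of genes was highest outside the principal-like cells. Ly6d in basal-like cells stood at 175 ± 46.2 CPM in the caput (SD, n = 3), at 75.2 ± 21.6 in the corpus and at 144 ± 8.73 in the cauda, against 11 ± 5.70, 4.91 ± 2.21 and 8.13 ± 1.48 in principal-like cells. In the cauda its lowest basal-like library (139) lay above the highest library of the next type (39.4 in macrophage/monocyte-like cells). Within basal-like cells it was called between segments, the corpus being lowest, but not without the block (adjusted p = 0.066) and not without either P56 pool (adjusted p = 0.23 and 0.11). Ly6a was also highest in basal-like cells, at 1406 ± 204, 1296 ± 342 and 1695 ± 421 in caput, corpus and cauda, and was not called between segments there (adjusted p = 0.18). Endothelial-like cells had 805 ± 193, 766 ± 257 and 1032 ± 217, and fibroblast-like cells 464 ± 107, 997 ± 300 and 1397 ± 651. In the cauda the range of the basal-like cells overlapped that of the myoid and fibroblast-like cells.

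Ly6e in basal-like cells stood at 3554 ± 477, 2824 ± 448 and 3907 ± 346 CPM in caput, corpus and cauda. Clear/narrow-like cells, which acidify the lumen, had 2249 ± 304, 3361 ± 299 and 3587 ± 769, so the mean was higher in basal-like cells in caput and cauda, with overlap in the cauda (3702 to 4306 against 2745 to 4252), and higher in clear/narrow-like cells in the corpus. In the caput both stood above the principal-like cells at 644 ± 165. Between segments Ly6e was called in principal-like cells and in none of the other 5 types tested, although no test of the difference between types was made. Ly6c1 marked endothelial-like cells, with 1191 ± 295, 1186 ± 242 and 969 ± 361 in caput, corpus and cauda and no call between segments (adjusted p = 0.95). Ciliated-like cells, found only in the caput, had 1249 ± 187, so these types overlapped there, while principal-like cells had 28.1 ± 13.2. In fibroblast-like cells Ly6c1 was uneven, at 86.9 ± 28.5, 483 ± 167 and 515 ± 465 from caput to cauda, and cluster 13, of which 1107 of 1109 cells were from P42, had 1086.

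Ly6c2, which with Ly6c1 makes up the Ly6C antigen of monocytes and T cells, was highest in halo/T-like cells, with 28.7 ± 26.4, 167 ± 46.2 and 118 ± 131 CPM from caput to cauda. Cluster 24, a macrophage/monocyte-like cluster, had 96.8 against 7.5 in cluster 6 and 3.3 in cluster 32, the other clusters of that class. Its leading genes were Ear2, Lyz1, Ccr2, Cd74, Retnla, Plbd1 and the major histocompatibility complex genes H2-Ab1, H2-Aa, H2-Eb1 and H2-DMa. Cluster 24 held 581 cells, 466 of them from P42. With cells gated on marker UMIs in place of clusters, Ly6c2 in the cauda was highest in endothelial-like cells.

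Sperm-like cells fell into clusters 33 and 25, and several Lypd genes had higher levels in cluster 33, which is a description with no test. Cluster 33, led by Ldhc and Meig1, which are genes of the late male germ line, held 185 CPM of Lypd4, 120 of Lypd9, 50.9 of Lypd10, 27 of Lypd11 and 21.4 of Lypd5. Cluster 25, led by the protamine genes Prm1 and Prm2, held 0.7, 1.1, 0.4, 0 and 1.4. Ly6k and Lypd4, both needed for sperm to enter the oviduct, were alike in this: Ly6k had 43.3 in cluster 33 and 1.1 in cluster 25. Ly6g6c did not part them, with 11.9 and 12.1. Of the 228 cells of cluster 33, 181 were from the caput, 47 from the corpus and none from the cauda, and of the 555 cells of cluster 25, 166, 320 and 69. In the sperm-like cells of the caput Lypd4 stood at 144 ± 55.0, Lypd9 at 76.2 ± 30.6, Lypd10 at 39.0 ± 13.4 and Ly6k at 33.9 ± 22.8, while principal-like cells had 0.408, 0.310, 0.0547 and 0.510.

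**Figure D4:**
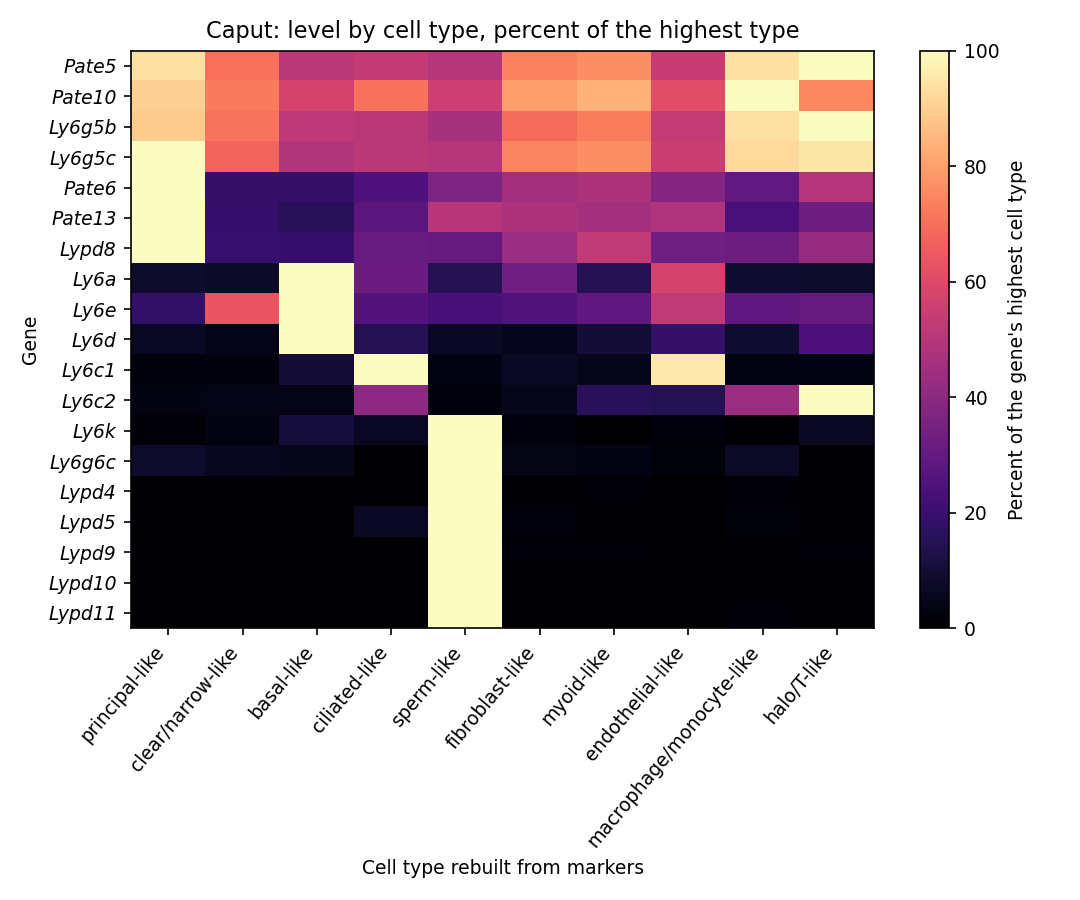
Level of 19 genes by rebuilt cell type in the caput, each as percent of the gene's highest cell type (color scale from 0 to 100, mean of the 3 libraries). Pate5, Pate10, Ly6g5b and Ly6g5c are bright in every type, Pate6, Pate13 and Lypd8 mainly in principal-like cells, Ly6a, Ly6e and Ly6d in basal-like cells, Ly6c1 in ciliated-like and endothelial-like cells, and Ly6k, Ly6g6c and the Lypd genes from Lypd4 to Lypd11 in sperm-like cells.

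The highest type was not settled for every gene. For Pate5, Ly6g5b and Ly6g6d the mean was highest in halo/T-like cells and for Pate10 in macrophage/monocyte-like cells of the caput, each overlapping the next type, and all 4 were highest in principal-like cells when cells were gated. For Ly6d, Lypd8, Pate2 and Pate6 the highest type did not overlap the next.

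Age was compared as P56 minus P42. At P42 there was 1 pool, so age and pool cannot be told apart, and the spread between the P56 pools stood in for that at P42. In the age fits the 3 segment libraries of a pool counted as separate samples although they came from the same mice, so the p-values of the age differences take libraries, not pools, as the replicates and can be too small. The scaling of the fit mattered here: without TMM factors the median log2 difference of all genes was -0.353, -0.596 and -0.820 for caput, corpus and cauda, against 0.0120, 0.0408 and -0.0631 with them. The log2 differences below are therefore relative to the bulk of the genes, and the CPM values, which carry no such factor, show less of a gain. In the caput, 39 genes were tested, 5 were not, and 2 were called, beside 3.48% of 21273 genes. Both were higher at P56, beside 0.903% of all genes called higher and 2.58% called lower. Without TMM factors 1 of 2 calls was higher and 1 lower, beside 7.6% higher among the 1552 calls of all genes, and with DESeq2 3 of 4 were higher, beside 46.1% of 986 (25.9% of 741 as reported). Pate1 stood at 1.89, 3.68 and 9.27 CPM (log2 difference 2.11, SE 0.43, adjusted p = 0.039) and Pate2 at 12.3, 26.2 and 46.2 (1.91, SE 0.26, adjusted p = 0.013). These are the corpus genes of the duct, at their lowest segment.

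In the corpus 8 of 39 were called, beside 10.6%, with 6 higher at P56 (2.76% of all genes) and 2 lower (7.83%). Pate1, Pate2, Pate3 and Pate4 were all higher, by 1.51 (SE 0.36), 1.31 (SE 0.25), 1.11 (SE 0.25) and 1.66 (SE 0.18), as was Ly6f by 1.55 (SE 0.38). Pate4, for one, stood at 15.2 CPM at P42 and at 31.8 and 29.6 at P56. In principal-like cells of the corpus the levels at P42 and P56 were 1770, 2367 and 2246 for Pate1 and 633, 728 and 737 for Pate2. Those of Pate3 were 21.6, 21.3 and 20.8, those of Pate4 27.5, 37.0 and 39.7 and those of Ly6f 938, 1077 and 1519. By CPM, which carries no TMM factor, Pate3 was thus not higher at P56 there. On the same scale Pate3 over all cells of the corpus stood at 12.6 at P42 and at 17.4 over the P56 libraries. The corpus libraries held 1644 principal-like cells at P42 and 2453 and 1799 at P56, 607 fibroblast-like cells against 266 and 208, and 512 macrophage/monocyte-like cells against 195 and 167. The part of these cell numbers was not tested. Lypd3 had 0 UMIs at P42, and P56 was at least 5.12-fold higher. Ly6c2 fell by 1.54 and Lypd6 by 1.76 on the log2 scale. Without TMM factors 2 of 8 calls were higher and 6 lower, beside 2.53% higher among the 3919 calls of all genes, and of the Pate genes only Pate4 was still called.

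The cauda showed the largest number of calls: 18 of 39, beside 32.3%, with 13 higher at P56 (12.9% of all genes) and 5 lower (19.4%). Pate6 stood at 304 CPM at P42 and at 1491 and 1748 at P56 (3.17, SE 0.31, adjusted p = 0.00015). Pate2 stood at 22.6, 114 and 102 (3.02, SE 0.28), and Ly6f at 573, 2106 and 2643 (2.81, SE 0.41). In principal-like cells of the cauda, given above, these genes stood at 843, 1900 and 2116, at 59.8, 156 and 132, and at 1563, 2783 and 3296. The cauda libraries held 1669 principal-like cells at P42 and 2036 and 2074 at P56. Lypd3 stood at 0.531, 9.95 and 18, the largest of these differences with a count at both ages (5.46, SE 0.66). Ly6d stood at 7.75, 43.2 and 39.3, beside 105 basal-like cells at P42 and 965 and 813 at P56. Ly6e, Pate1, Pate4, Pate9, Ly6g6d, Lypd6b and Ly6m were also higher, by 1.38 to 3.59. Pate14 had 0 UMIs at P42, and P56 was at least 2.71-fold higher.

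Lower at P56 in the cauda were Ly6c2, Ly6c1, Ly6g5b, Lypd6 and Lypd2. Ly6c2 stood at 24.8 CPM at P42 and at 0.615 and 1.35 at P56 (log2 difference -3.88, SE 0.40, adjusted p = 0.0002), beside 120 halo/T-like cells at P42 and 14 and 23 at P56. Ly6c1 stood at 564, 124 and 102 (-1.56, SE 0.33), beside 1343 fibroblast-like cells at P42 and 487 and 382 at P56. Endothelial-like cells numbered 21 at P42 and 65 and 20 at P56. The part of these cell numbers was not tested. In principal-like cells of the cauda Ly6c1 stood at 228 CPM at P42 and at 58.0 over the P56 libraries, and Ly6c2 at 15.9 and 0.780. Ly6g5b, a caput gene, had 63 UMIs in the P42 cauda and 23 in each P56 cauda library (3.34, 0.643 and 0.566 CPM), beside 27921 to 45064 in the caput libraries. Lypd2, with 16 UMIs in all, had 11 in the P42 cauda and 0 in the P56 cauda, which makes P56 at least 14.9-fold lower. This bound rests on few counts in 1 library. Without TMM factors 15 genes were called, 9 higher and 6 lower, beside 11% higher among the 8418 calls of all genes (39.9% of 6864 as reported).

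**Figure D5:**
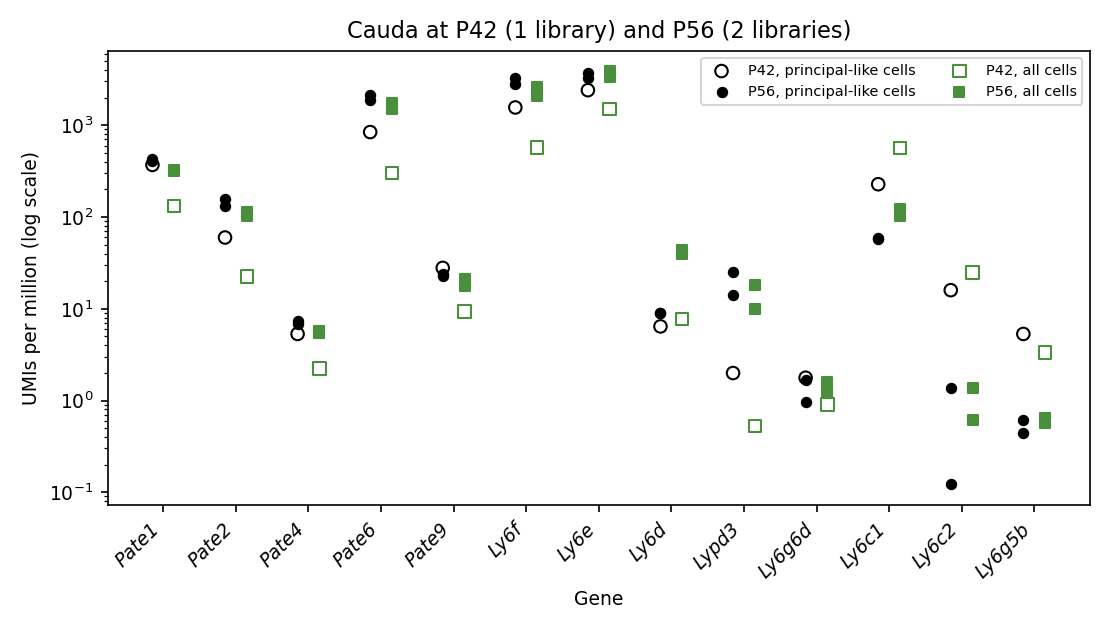
Level of 13 genes in the cauda (CPM, log axis) at P42 (open, 1 library) and P56 (filled, 2 libraries), over all cells (squares) and in principal-like cells (circles). Over all cells the P42 square lies below both P56 squares for genes from Pate1 to Lypd3 and above them for Ly6c1, Ly6c2 and Ly6g5b, while for Pate1 and Pate9 the circles of the ages lie close together.

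With 1 age effect shared over the segments, 12 of 39 genes were called over all cells, beside 15.7%, with 8 higher (3.91%) and 4 lower (11.8%). The higher genes were Pate1, Pate2, Pate3, Pate4, Pate9, Ly6f, Lypd3 and Lypd10, and the lower were Ly6c1, Ly6c2, Lypd2 and Lypd6. Lypd10 stood at 0.172, 0.571 and 1.69 in the caput, beside the sperm-like cells given above. When either P56 pool was left out edgeR called no gene, of the families or of the whole table, although 14 of 39 and 13 of 36 of the families' genes had an unadjusted p below 0.05, beside 20.8% and 24.5% of all genes. Without TMM factors 4 were called higher and 6 lower, beside 3.47% higher among the 5527 calls of all genes.

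Within principal-like cells 2 of 31 were called, beside 4.49%, and both were higher (0.907% of all genes were called higher and 3.58% lower): Lypd3 by 2.61 (SE 0.67, adjusted p = 0.048) and Pate2 by 1.47 (SE 0.31, adjusted p = 0.031). Pate1 in these cells stood at 370 in the P42 cauda and at 425 and 411 at P56, against 133, 319 and 325 over all cells. Pate9 stood at 27.9 against 22.9 and 23.7, so by CPM its P42 library was the highest of the 3. The fit, with TMM factors, put its shared log2 difference at 0.41 (SE 0.37), which was not called. Principal-like cells of the ages fell in different clusters: of the 1159 cells of cluster 12, mostly of the corpus, 1157 were from P42, as were all 1674 of cluster 9, mostly of the cauda and with a median of 1486 UMIs in a cell, while of the 3426 of cluster 0 only 28 were. Here too no gene was called by edgeR without either P56 pool, with 6 of 30 and 9 of 29 of the families' genes at an unadjusted p below 0.05, beside 12.4% and 15.1% of all genes. Without TMM factors 1 of 4 calls was higher, beside 2.27% of the 2649 calls of all genes.

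The age difference was not the same in every segment for 8 of the 39 genes, beside 14.3% of all genes (adjusted p below 0.05 for the interaction): Ly6c2, Ly6d, Ly6e, Ly6g5b, Lypd3, Pate2, Pate4 and Pate6. With the pool as a block, which the difference between segments allows and which was chosen after seeing the data, edgeR called these 8 and also Ly6f, Ly6g6c, Lypd4 and Pate5, 12 of 39, beside 23.4% of all genes. For Pate6 the P42 and P56 libraries stood at 1285, 1612 and 1235 in the caput, where they overlapped, and far apart in the cauda. For Ly6e they stood at 1479, 863 and 1361 in the caput and at 1508, 3364 and 3863 in the cauda.

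Related genes outside the families were read from lists of names. Of 15 other Ly6/uPAR domain genes, 11 were tested over all cells between segments and 4 called (36.4%), with a median largest log2 difference of 2.28. Of 28 genes that build, transfer or remodel the GPI anchor, all 28 were tested and 5 called (17.9%), with a median of 0.547, beside 24.7% and 0.801 for all genes. In principal-like cells 5 of 7 and 6 of 27 were called, beside 33.6%. Between ages, with the shared effect over all cells, 4 of 13 and 2 of 28 were called, beside 15.7%.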

How the data were processed

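Libraries of single epididymal cells were made by the authors with a microwell chip kit that tags each RNA molecule at its 3′ end with a UMI. The deposited values are raw UMI counts, 1 table for the 9 libraries with 0 columns of no sample. Per the study's methods and the submitters' processing notes, reads were trimmed, mapped with STAR 2.7.3a to GRCm38.p6, assigned to exons with featureCounts and collapsed with UMI-tools, and the strand setting is not given in the sources used here. Column prefixes were tied to libraries through the titles and the study's list of batches.

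Cells with 300 to 4000 genes, at most 20000 UMIs and under 50% mitochondrial UMIs were kept (42087 of 44869 barcodes), and 676 globin-rich cells were removed. No doublet caller was run, and 267 cells shared a barcode sequence with another library (113 sequences). Cells were clustered on 50 components of 3000 variable genes with Leiden at resolution 1 (leidenalg 0.10.2, Python 3.11.15, scikit-learn 1.9.0), giving 37 clusters named by fixed markers. Other classes needed at least 3 markers, and a share of 0.4 of their list, at 2-fold within libraries. Clusters that met none of these could be named principal with 3 of 26 markers, also against all other cells. Clusters 0, 1 and 20 were named so with 4, 3 and 3 markers. Libraries held 23114756 to 50655384 deposited UMIs and 18848383 to 40664323 after filtering, and the latter set the counting error. The P42 caput library went from 50655384 UMIs in 4981 barcodes to 29055176 in 4080 cells. The P56 caput libraries went from 33881990 to 31510816 and from 37040481 to 34965016 UMIs.

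UMI counts were summed per library and type (at least 10 cells) and tested with edgeR 4.0.16 (filterByExpr, TMM, quasi-likelihood F test, Benjamini-Hochberg, R 4.3.3), with the pool as a block between segments. Libraries of a pool came from the same mice, and their deviations from the segment means correlated at 0.139 to 0.738 in all 9 pairs. Genes with an adjusted p below 0.05 and a log2 difference of at least 1 were called, and for the interaction the p alone was used. Between segments, the block takes up the spread between the 3 pools, so p-values measure how far the segment differences vary from pool to pool. The pools differ in age, so this variation also holds any age difference that is not the same in every segment. Such a difference was called for 14.3% of all genes tested. Between ages, libraries of 1 pool entered as separate samples, since age lies between pools and the pool cannot be a block. The interaction of age and segment was fitted without the block and, as an alternative chosen after seeing the data, with it. The test was also run on simulated counts drawn independently for each library. These held no pool effect, so they cannot check how the fits treat libraries of 1 pool. Alternatives were DESeq2 1.42.0, no filter, TMM factors of 1, no block, no mitochondrial genes, other cell limits, gated cells, doubled resolution, thinned cells and each pool left out. Genes with at least 1000 UMIs, and those called, were described by value. The genes and lists were chosen with earlier results of these data known.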

Additional observations from a re-analysis of the deposited data

Results flagged for a closer look

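For 8 of 39 genes the age difference over all cells (P56 minus P42) was not the same in every segment, by the interaction test of edgeR with adjustment over 21273 genes, of which 14.3% were called. The values are the age difference in the cauda minus that in the caput, on the log2 scale. It was 4.59 for Lypd3 (SE 0.86, adjusted p of the interaction = 0.021), 2.67 for Ly6d (SE 0.47, adjusted p = 0.0105), 2.63 for Pate6 (SE 0.38, adjusted p = 0.0095) and 2.08 for Ly6e (SE 0.35, adjusted p = 0.017). It was smaller for Pate4 at 1.96 (SE 0.32, adjusted p = 0.014) and Pate2 at 1.11 (SE 0.34, adjusted p = 0.031). These p-values are of both differences between segments at once, and for the cauda against the caput alone that of Pate2 was 0.055, above the threshold, while those of the other 7 were 0.0038 to 0.022. For Ly6c2 it was -3.04 (SE 0.61, adjusted p = 0.026) and for Ly6g5b -2.53 (SE 0.60, adjusted p = 0.042), so that these genes were lower at P56 in the cauda relative to the caput. Ly6g5b had only 63, 23 and 23 UMIs in the cauda libraries (3.34, 0.643 and 0.566 CPM) beside 27921 to 45064 in those of the caput. With the pool as a block, an alternative chosen after seeing the data, edgeR called all 8 (adjusted p = 0.000513 for Ly6d to 0.0073 for Pate4). The P42 libraries came from 1 pool. The cauda library at P42 held 105 basal-like, 146 clear/narrow-like, 912 macrophage/monocyte-like and 120 halo/T-like cells, against 965 and 813, 811 and 940, 164 and 304, and 14 and 23 at P56, and the part of these numbers was not tested. Groups held 1 to 3 libraries, too few for a search for single outlying samples.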

How the results depend on the processing

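None of the 1930 values by gene changed sign where it was called as reported or in the alternative, while 20 with a test, none of them called, and 10 without one did. Of 688 segment values under settings other than leaving out a pool, 656 kept their direction and side of the threshold, 20 lost their call and 12 gained one, and of 612 age values 542, 24 and 33 did so and 13 changed sign. Leaving out a pool, 342 of 403 segment values were kept, 46 lost their call, 13 gained one and 2 changed sign. Of 227 age values 167 were kept or, with no test, moved by at most 1 SE, and 28 lost their call. With a test 5 changed sign, and 27 with no test moved by more than 1 SE. The 10 without a test that changed sign are counted among those kept or moved. Of these, in the corpus, Pate13 turned from 2.75 to -0.30 and Ly6g5c from 0.47 to -0.97 without the P56 replicate 1 pool. Pate10 there turned from 0.22 to -1.31 without the P56 replicate 2 pool. The level in the highest type moved by more than 1 SD in 8 of 38 values, and all 21 shares moved on thinning. With the replicate block, chosen after seeing the data, the interaction of age and segment called 4976 of all genes (3032 without it) and 12 of the families' genes (8). Without the filter on low counts, all genes called between segments numbered 2698 in basal-like, 2989 in clear/narrow-like, 2458 in myoid-like and fibroblast-like, 2381 in macrophage/monocyte-like and 823 in endothelial-like cells (1733, 1943, 1194, 1145 and 494 with it). Without the replicate block the last 3 were 598, 632 and 286. For age in the caput, 4 of the families' genes were called with DESeq2 and 6 without the filter (2 as reported), and all genes called were 1845 without the filter and 1552 with TMM factors of 1 (741). With TMM factors of 1, all genes called were 3919 for age in the corpus (2254) and 5527 for the shared age effect over all cells (3332). For the shared age effect in principal-like cells, DESeq2, no filter and TMM factors of 1 called 5, 7 and 4 of the families' genes (2) and 1278, 1838 and 2649 of all genes (807). After thinning, 7 genes in place of 12 had a UMI in at least 50% of the cells of a type. With TMM factors of 1 the log2 age difference turned to -0.23 for Pate4 in the caput, -0.074 for Ly6e, -0.15 for Ly6g5c, -0.52 for Ly6g6d and -0.40 for Pate10 in the corpus, and -0.60 for Ly6a in the cauda. The shared difference turned to -0.37 for Ly6g5c and -0.17 for Lypd8 over all cells, and in principal-like cells to -0.0080 for Ly6d, -0.36 for Ly6g6d, -0.31 for Lypd8, -0.12 for Pate10 and -0.35 for Pate9. Leaving out a pool, cauda minus caput of Ly6c2 in principal-like cells ranged from -0.0058 to 2.15 and cauda minus corpus of Ly6c1 in endothelial-like cells from -0.60 to 0.24, and the shared age difference from -0.32 to 0.57 for Ly6g5c and -0.61 to 0.054 for Pate5 over all cells, and from -0.35 to 0.048 for Ly6a, -0.64 to 0.22 for Ly6g5c and -0.11 to 0.36 for Lypd8 in principal-like cells. The cause was not tested.

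Leaving out a pool moved the calls between segments to 13 to 29 of the families' genes and 614 to 7446 of all genes over all cells, 2578 to 6577 of all genes in principal-like, 519 to 2990 in basal-like, 798 to 2898 in clear/narrow-like, 361 to 2373 in macrophage/monocyte-like and 197 to 753 in endothelial-like cells, and to 10 to 18 and 269 to 2615 in myoid-like and fibroblast-like cells. The lowest of each came without the P56 replicate 1 pool and the highest without the P42 pool. For the shared age effect, leaving out either P56 pool left 0 calls, of the families and of all genes, over all cells and in principal-like cells, by edgeR, with 4368 and 4992, and 2115 and 2588, of all genes at an unadjusted p below 0.05 (DESeq2 was not run on these). Within a segment the age difference without a P56 pool has no test. UMIs per library limit what can be said of the 12 genes with fewer than 100 UMIs.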
